A study of Mus musculus with 16 samples.

Results

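Of the 9654 mouse genes on the array that carry a placeholder name (Gm and a number, or a name ending in Rik), 96 had a low signal in oocytes, 1-cell and early 2-cell embryos and high in 8-cell embryos, morulae and blastocysts. They were chosen by measured values. A row of the deposited table with 1 such symbol was taken when its log2 signal was at most 7 at MII, 1-cell and early 2-cell, and when the mean of 8-cell, morula and blastocyst lay at least 2 log2 units (a signal at least 4 times as high) above the highest of those 3 early values. Both conditions had to hold in superovulated and in natural-cycle material. The 96 genes had 96 such rows, out of 9781 rows with a placeholder name, 30638 rows with exactly 1 gene symbol and 72688 rows in all. Low early values and high late values are therefore a description of the choice and not a finding.

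The series held 16 Affymetrix mouse transcriptome arrays, a single array for each stage on each of 2 hormonal backgrounds. In the superovulated background B6C3F1 females received 10 IU PMSG and, 48 h later, 10 IU hCG, and the material was collected in 4 runs (3096 oocytes and embryos in total). In the natural-cycle background the females had no ovarian stimulation, and the material came from 9 runs (989 oocytes and embryos). MII oocytes were unfertilized and lysed at once, from unmated females in the superovulated background and from females mated with vasectomized males in the natural-cycle background. Embryos were sired by CD1 males, fertilized in vivo and cultured as zygotes in KSOM(aa) medium and taken on day 0 (1-cell), day 1 (early 2-cell and late 2-cell), day 2 (4-cell), day 3 (8-cell and morula) or day 4 (blastocyst). Lysates of the runs were pooled by stage, and a volume equal to 20 oocytes or embryos went on each array, so the embryos on an array are not replicates.

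In the mouse, the oocyte's stored RNA is cleared while the embryo begins its own transcription, whose main wave comes during the 2-cell stage. Placeholder names mark genes that were predicted from the genome or seen first as RIKEN cDNA clones, and many are processed pseudogenes, copies of messenger RNAs pasted back into the genome. A probe against such a copy can also bind the RNA of the parent gene, and the probe of a small RNA that lies within an intron can also bind the host gene's RNA, so the sources of these signals cannot be told apart here.

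By RefSeq gene type (assembly GRCm38.p6), 69 of the 96 genes were pseudogenes, 5 of them annotated as transcribed. They made up 71.9% of the chosen genes against 38.2% of all rows with a placeholder name. Small RNAs contributed 15 genes, with 9 snoRNAs (guides for the chemical modification of other RNAs), 5 snRNAs (spliceosomal RNAs) and 1 guide RNA. Only 4 were long non-coding RNAs, 4.17% of the chosen genes against 30.4% of the rows with a placeholder name. The protein-coding members were 1500009L16Rik, 4930591A17Rik, C130074G19Rik, Gm12169 and Gm3993, and 3 members (Gm10012, 2410019O14Rik and Gm11603) had no RefSeq record. Chromosome X held 13 members (13.5% of them, against 10.3% of rows with a placeholder name), chromosomes 2 and 11 held 12 each (12.5%, against 8.78% and 6.57%), and the Y chromosome held none (against 0.992%). Of rows with a placeholder name 0.98% met the level rule, and of rows with another symbol 1.48% did (309 of 20857).

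**Figure D1:**
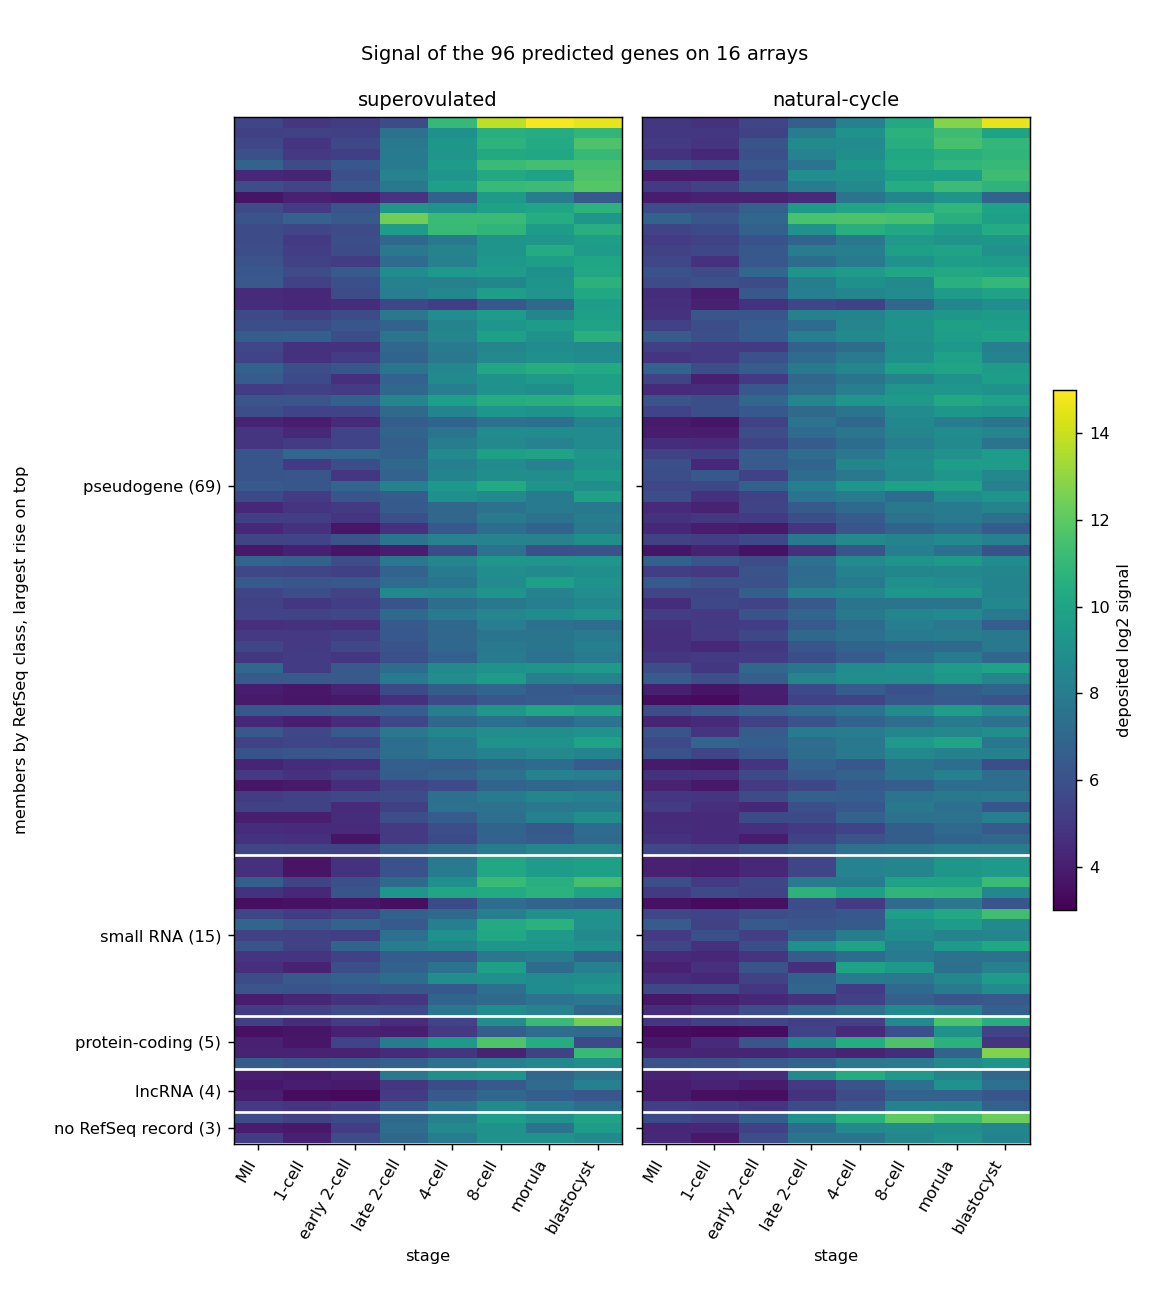
Deposited log2 signal (colour) of the 96 genes (rows, grouped by RefSeq class and ordered by rise) over 8 stages, superovulated arrays in the left panel and natural-cycle arrays in the right panel. The early columns are dark by the choice of the genes, the colours change at different columns from row to row, and the top row, Gm2399, reads 14.61 superovulated and 14.58 natural-cycle at blastocyst.

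The median signal of the 96 genes in superovulated material was 5.40 in oocytes, 5.11 in zygotes, 5.41 at early 2-cell, 6.78 at late 2-cell, then 7.99 with 4 cells, 8.90 with 8 cells, 8.81 in morulae and 9.02 in blastocysts. In natural-cycle material it was 4.95, 4.92, 5.73, 7.0, 7.81, 8.68, 9.07 and 8.51 at the same stages. Both courses were flat up to 1-cell, climbed from early 2-cell to 8-cell, and then levelled off, while the median of all 30638 rows stayed between 4.94 and 5.10 on every array. At MII, 14 of the 96 genes in superovulated oocytes and 38 in natural-cycle oocytes lay above the highest of the array's 23 background rows, and at morula all 96 did on both backgrounds. That highest background row stood at 6.27 on the superovulated and 5.24 on the natural-cycle MII array. Values are relative to the other rows of an array and are not amounts for each embryo. Fewer cells that express a gene and less of its RNA in each cell cannot be told apart in such pooled lysates. Of the marker lists checked, oocyte genes such as those of the zona pellucida had a median of 15.58 in superovulated and 15.34 in natural-cycle MII oocytes, and trophectoderm genes were highest at blastocyst (median 10.92 superovulated, 12.99 natural-cycle), and genes of the first wave of embryonic transcription at early 2-cell (13.54 superovulated, 13.60 natural-cycle). Inner cell mass genes had a median of 8.55 in superovulated and 8.69 in natural-cycle blastocysts, and primitive endoderm genes 4.97 and 5.92. Cumulus and granulosa genes, markers of the cells around the oocyte, had medians between 4.00 and 5.23 on all 16 arrays, and 9 of their 10 genes were on the array. The highest of these genes read 11.94 in superovulated and 8.12 in natural-cycle MII oocytes, and 12.24 and 11.49 at 4-cell.

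The rise, taken on the background where it was smaller, ran from 2.01 to 7.02 log2. Gm2399, a pseudogene on chromosome 13, had the largest. Its signal in superovulated material was 5.49, 4.92, 5.15, 5.75, 11.06, 13.84, 14.90 and 14.61 in the order of the stages from MII to blastocyst. In natural-cycle material it was 4.96, 4.69, 5.52, 6.65, 8.22, 10.23, 12.78 and 14.58. The 2 courses met at blastocyst but ran apart before it, superovulated embryos being 2.84 log2 higher at 4-cell, 3.61 at 8-cell and 2.12 at morula. Gm7290 on chromosome 7 (rise 5.22), Gm15696 on chromosome 16 (4.88), Gm6987 on chromosome X (4.59), Gm12816 on chromosome 4 (4.49) and the transcribed pseudogene E530001F21Rik on chromosome X (4.39) were further pseudogenes among the 10 largest rises. Gm6987 read 5.92, 5.00, 5.24, 7.97, 9.27, 10.29, 10.21 and 11.04 from MII to blastocyst in superovulated material, and 4.77, 4.34, 5.92, 8.32, 8.95, 10.15, 10.52 and 10.85 in natural-cycle material. On both backgrounds the late 2-cell and 4-cell values of Gm6987 were above all its values up to early 2-cell. The rule had kept those early values low, so this is a description.

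The small RNAs with the largest rises were the snoRNAs Gm24091 and Gm23711 (4.72 each) and the snRNA Gm22973 (4.43). Gm24091 and Gm23711 are neighbours on chromosome 4. Their 16 values were identical, so they count as a single measurement. They read 4.64, 3.65, 4.77, 6.01, 7.98, 10.15, 9.64 and 9.81 in superovulated and 4.08, 3.99, 4.38, 5.50, 8.32, 8.47, 9.33 and 9.51 in natural-cycle material, MII to blastocyst. The late 2-cell values were low on both backgrounds and the 4-cell values high, with no overlap between these stages. Of the 15 small RNAs 13 lay inside another RefSeq gene.

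Members close to the thresholds show where the choice was made. At the ceiling of 7, Gm8163 (highest early value 6.99), Gm17430 (6.98) and Gm25514 (6.98) were just inside, and Gm6238 (above the ceiling by less than 0.01), Gm22980 (7.05) and Gm21887 (7.07) were just outside. At the margin of 2, Gm12267 (rise 2.01), Gm7927 (2.01) and Gm12466 (2.02) were just inside, and Gm13929 (2.00, below the margin before rounding), Gm26440 (1.99) and D130040H23Rik (1.98) were just outside. Gm21887 missed the ceiling by little and had a rise of 4.46, more than most of the chosen genes.

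Late 2-cell and 4-cell were not used to choose the genes, and they show how the switch was spread over stages. A gene was counted as on when its signal was at least 2 log2 above the highest of its 3 early values on both backgrounds. On that count 13 of the 96 genes were first on at late 2-cell, 24 at 4-cell, 46 at 8-cell, 9 at morula and 3 at blastocyst, and 1 passed the margin at no single stage on both. Of the 309 rows with other symbols that met the same level rule, 42 were first on at late 2-cell, 75 at 4-cell, 97 at 8-cell, 52 at morula and 43 at blastocyst. Expressed as shares, 47.9% of the predicted genes were first on at 8-cell against 31.4% of the other rows, and 3.12% at blastocyst against 13.9%. The rule used 8-cell, morula and blastocyst as well as the early maximum, so these shares are a description without a test. With a margin of 1.5 or 2.5 log2 in place of 2 the genes on at late 2-cell numbered 23 or 4. The first stage was the same on both backgrounds for 53 genes, earlier in superovulated embryos for 28 and earlier in natural-cycle embryos for 15. Each background was measured from its own early maximum. The members' early 2-cell median was 5.41 in superovulated and 5.73 in natural-cycle material, so these counts do not compare timing alone.

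**Figure D2:**
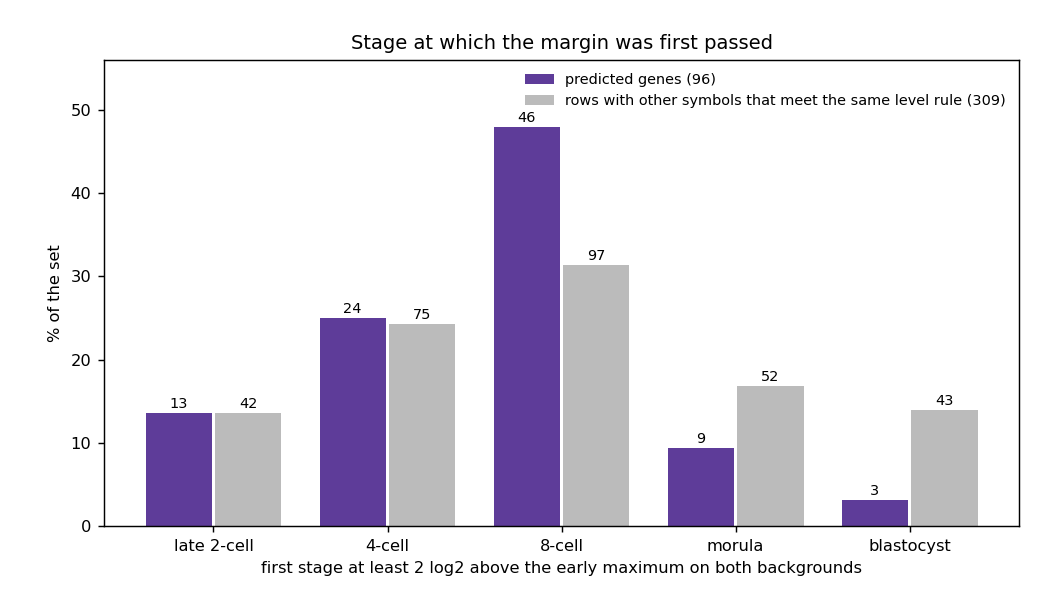
Share (%) of the 96 predicted genes (left bars) and of the 309 rows with other symbols that met the same level rule (right bars), by the first stage at which the signal was at least 2 log2 above its early maximum on both backgrounds; numbers above the bars are counts. The tallest bar of each set was at 8-cell (46 and 97).

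The 13 genes on at late 2-cell were led by Gm21028, a pseudogene on chromosome 7 that overlaps the zinc finger gene Zfp977. In superovulated material it read 6.14, 6.78, 6.34, 12.39, 11.16, 11.19, 10.43 and 9.34 from MII to blastocyst, and in natural-cycle material 6.85, 6.22, 6.95, 11.57, 11.63, 11.49, 10.51 and 9.78. Its signal was already at or near its highest at late 2-cell on both backgrounds, and was lower at each of morula and blastocyst than at 8-cell. The long non-coding RNA Gm26944, which overlaps the mRNA cleavage factor gene Pcf11, followed. It read 4.00, 3.84, 4.09, 7.79, 9.00, 9.23, 7.04 and 7.63 in superovulated and 4.15, 4.40, 4.59, 8.72, 10.38, 9.47, 8.49 and 7.02 in natural-cycle material. It peaked at 8-cell in superovulated and at 4-cell in natural-cycle embryos. The Pcf11 row was high throughout, with a mean of 9.59 over the early and 9.97 over the late arrays, so the 2 rows did not share a course.

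The guide RNA Gm23557 lies within Pola1, the catalytic subunit gene of the DNA polymerase that starts replication. It read 4.76, 4.32, 6.13, 9.29, 10.06, 10.35, 10.67 and 9.94 in superovulated and 5.03, 5.66, 5.46, 10.77, 9.82, 10.83, 10.80 and 8.62 in natural-cycle material. The 4-cell values were above all values up to early 2-cell, which the rule had kept low, so this is a description. Pola1 itself had a mean of 9.48 over the early and 9.58 over the late arrays, and in natural-cycle embryos it read 10.53 at 8-cell, 10.73 at morula and 8.71 at blastocyst, a lower last value like that of Gm23557. In superovulated embryos Pola1 read 9.54, 8.99 and 8.98 at these stages. The pseudogene Gm14830 on chromosome X (late 2-cell 9.33 superovulated, 9.54 natural-cycle), E530001F21Rik (8.34 and 8.88) and the protein-coding C130074G19Rik (7.96 and 8.53) were the next in order of their late 2-cell difference. After late 2-cell the members separated, and 54 were highest at blastocyst in superovulated embryos but 31 in natural-cycle embryos. At morula 21 members were highest in superovulated and 45 in natural-cycle embryos, and the highest stage was the same on both backgrounds for 41. The members' median morula minus 8-cell step was -0.00 log2 in superovulated and 0.38 in natural-cycle embryos, and their blastocyst minus morula step 0.30 and -0.27. For the 309 other rows that met the level rule these medians were 0.06 and 0.62, and 0.39 and -0.25. The shift was thus not particular to the members, and it rests on 1 array for each stage and background.

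The step of 4-cell over late 2-cell used arrays that the choice had not used, although genes chosen to be low before and high after this interval can be higher at its end through the choice alone. The members' median difference was 0.87 log2 against -0.00 over all rows, and the plain 4-cell value was the higher one on both backgrounds for 81 of 96. On each background alone it was higher for 89 members in superovulated and 86 in natural-cycle embryos. Among the 309 other rows that met the level rule it was higher for 290 and 279. The count on both backgrounds is given for the members only. By limma with Benjamini-Hochberg adjustment over all 30638 rows, 8 members were called higher, where 1.01% of all rows were, and 0 were called lower, where 1.05% of all rows were. An unadjusted p under 0.05 was found for 61 of 96 members and for 4909 of 30638 rows. Since each stage and background had 1 array, p-values here weigh a difference against how far the 2 backgrounds depart from a common stage course. Of the other rows that met the level rule, 58 of 309 were called higher.

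Pseudogenes gave 4 of the 8 calls, small RNAs 2, long non-coding RNAs 1 and protein-coding genes 1, and the 2 small RNAs share 1 set of values, which leaves 7 separate measurements. The pseudogene Gm12209 on chromosome 11 read 6.68 at 4-cell and 4.84 at late 2-cell in superovulated embryos, and 7.63 and 4.47 in natural-cycle embryos. The 4-cell value was higher by 1.84 log2 in superovulated and 3.16 in natural-cycle embryos (adjusted p = 0.0168, limma). Gm12206, another pseudogene with 7 RefSeq genes between it and Gm12209, read 5.70 at 4-cell and 3.93 at late 2-cell in superovulated, and 6.13 and 4.66 in natural-cycle embryos. It was higher at 4-cell by 1.62 ± 0.33 (adjusted p = 0.0329). For both genes each 4-cell value was above each late 2-cell value, but the late 2-cell values lay below the highest background row of their arrays (5.51 superovulated, 5.20 natural-cycle), so the size of these differences is not settled.

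The snoRNA pair Gm24091 and Gm23711, whose values are given above, was 2.40 ± 0.39 higher at 4-cell (adjusted p = 0.0166). Gm12816 read 9.60 at 4-cell and 7.95 at late 2-cell in superovulated embryos, and 9.36 and 7.59 in natural-cycle embryos. The 2 backgrounds moved by nearly the same amount, and the difference was 1.71 ± 0.26 (3.28-fold, adjusted p = 0.0142). Outside the rule for named genes, and named after their values were seen, the pseudogene Gm8425 (1.39 ± 0.25, adjusted p = 0.0220) and the long non-coding RNA 4931406H21Rik (1.11 ± 0.20, adjusted p = 0.0207) completed the list with C130074G19Rik (1.68 ± 0.38, adjusted p = 0.0488). The late 2-cell values of 4931406H21Rik (5.13 superovulated, 4.75 natural-cycle) were also below the highest background row. Without the natural-cycle 4-cell array 0 members were called, and without the superovulated 4-cell array 4 were. C130074G19Rik kept its 4-cell call in 2 of 16 fits that left out an array, with adjusted p up to 0.345.

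C130074G19Rik, on chromosome 1, rose and then fell. In superovulated material it read 4.09, 3.71, 5.40, 7.96, 9.43, 11.70, 10.44 and 5.65 from MII to blastocyst, and in natural-cycle material 3.78, 4.47, 6.17, 8.53, 10.42, 11.67, 10.73 and 4.87. Both courses peaked at 8-cell with nearly equal signal, and at blastocyst both were no higher than 6.17, the natural-cycle early 2-cell value. The blastocyst minus morula difference was -5.33 ± 0.38 log2. C130074G19Rik met the rule through its 8-cell and morula values, so this difference is a description with no test. Its size is not settled, since the natural-cycle blastocyst value lay below that array's highest background row (5.20). It was 1 of 3 members that were called in a stage step and had a RefSeq promoter window, and these promoters are printed for that reason.

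Windows of 250 bases before to 50 bases after the annotated start were held for 6 of the 96 genes (RefSeq, GRCm38.p6): C130074G19Rik, 4930591A17Rik, Gm26944 (2 starts), 1500009L16Rik, 4931406H21Rik and Gm26510. The 3 sequences printed run 5′ to 3′ on the gene's own strand, with every match to a searched motif on either strand in capitals. C130074G19Rik lies on the minus strand (chr1:184882987-184883286), 1500009L16Rik on the plus strand (chr10:83722615-83722914) and 4931406H21Rik on the plus strand (chr14:25586554-25586853).
C130074G19Rik: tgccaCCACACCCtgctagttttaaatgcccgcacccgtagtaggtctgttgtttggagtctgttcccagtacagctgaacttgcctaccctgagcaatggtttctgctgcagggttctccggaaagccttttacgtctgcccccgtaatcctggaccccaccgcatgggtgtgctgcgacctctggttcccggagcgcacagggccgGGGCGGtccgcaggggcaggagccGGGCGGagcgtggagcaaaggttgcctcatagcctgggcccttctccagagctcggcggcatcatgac
1500009L16Rik: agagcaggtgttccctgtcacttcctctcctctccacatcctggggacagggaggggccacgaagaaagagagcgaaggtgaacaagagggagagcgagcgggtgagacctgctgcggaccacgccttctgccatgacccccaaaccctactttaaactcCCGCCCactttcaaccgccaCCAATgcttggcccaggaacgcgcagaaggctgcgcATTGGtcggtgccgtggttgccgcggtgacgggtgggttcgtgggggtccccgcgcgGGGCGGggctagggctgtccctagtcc
4931406H21Rik: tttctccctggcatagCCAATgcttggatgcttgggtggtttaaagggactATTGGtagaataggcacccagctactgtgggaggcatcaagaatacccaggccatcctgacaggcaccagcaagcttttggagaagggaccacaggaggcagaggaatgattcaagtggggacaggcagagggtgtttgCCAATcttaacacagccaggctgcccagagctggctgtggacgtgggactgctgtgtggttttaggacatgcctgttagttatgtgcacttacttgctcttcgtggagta
The motifs searched were the GC box (GGGCGG), the CACCC or Klf core (GGGTGTGG), TEAD (ACATTCC), Nr5a2 (TCAAGGNCA), Tfap2 (GCCNNNGGC), the octamer (ATGCAAAT), Sox (ACAATGG), that of Gata factors (AGATAAG), the CCAAT box (CCAAT), the E box (CACGTG) and the TATA box (TATAAA), and no matches overlapped each other. C130074G19Rik held 2 GC boxes and 1 CACCC core, 1500009L16Rik held 2 GC boxes and 2 CCAAT boxes, and 4931406H21Rik held 3 CCAAT boxes. Of all 32851 windows 35.7% held a GC box, 37.4% a CCAAT box, 3.56% a CACCC core and 16.6% a Tfap2 match. The motifs with no match in these 6 genes were held by 3.85% (TEAD), 1.62% (Nr5a2), 1.74% (octamer), 3.66% (Sox), 3.04% (Gata), 7.15% (E box) and 13.6% (TATA box) of all windows. Both Gm26944 windows held a Tfap2 match, and 4930591A17Rik and Gm26510 held none of the letters searched. Such matches describe the windows and are not binding sites.

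The next steps lie between stages whose mean the rule used, though not their differences, so a gene with 1 very high late stage could be chosen through that stage. From 8-cell to morula the members' median difference was 0.18 log2 against 0.04 over all rows, and 42 of the 96 moved in opposite directions on the 2 backgrounds. This last count is given for the members only. Morula was the higher stage for 48 members in superovulated and 72 in natural-cycle embryos, and for 162 and 233 of the 309 other rows. A single member was called higher and 0 were called lower at morula, where 0.682% of all rows were called higher and 1.14% lower. An unadjusted p under 0.05 was found for 16 members and for 4070 rows in all. It was 1500009L16Rik on chromosome 10, whose synonym OCC-1 comes from a human transcript described as overexpressed in colon carcinoma. In superovulated material it read 5.25, 4.55, 5.13, 4.52, 5.42, 8.93, 11.17 and 12.45 from MII to blastocyst, and in natural-cycle material 4.92, 5.35, 5.50, 5.26, 5.36, 8.68, 11.60 and 10.55. It stayed at its early level up to 4-cell on both backgrounds, was first on at 8-cell, and was 2.58 ± 0.51 log2 (5.98-fold) higher at morula than at 8-cell (adjusted p = 0.0304, limma). The call was kept in 8 of the 16 fits that left out an array and was lost without either MII, 4-cell, 8-cell or morula array (adjusted p between 0.0509 and 0.175).

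**Figure D3:**
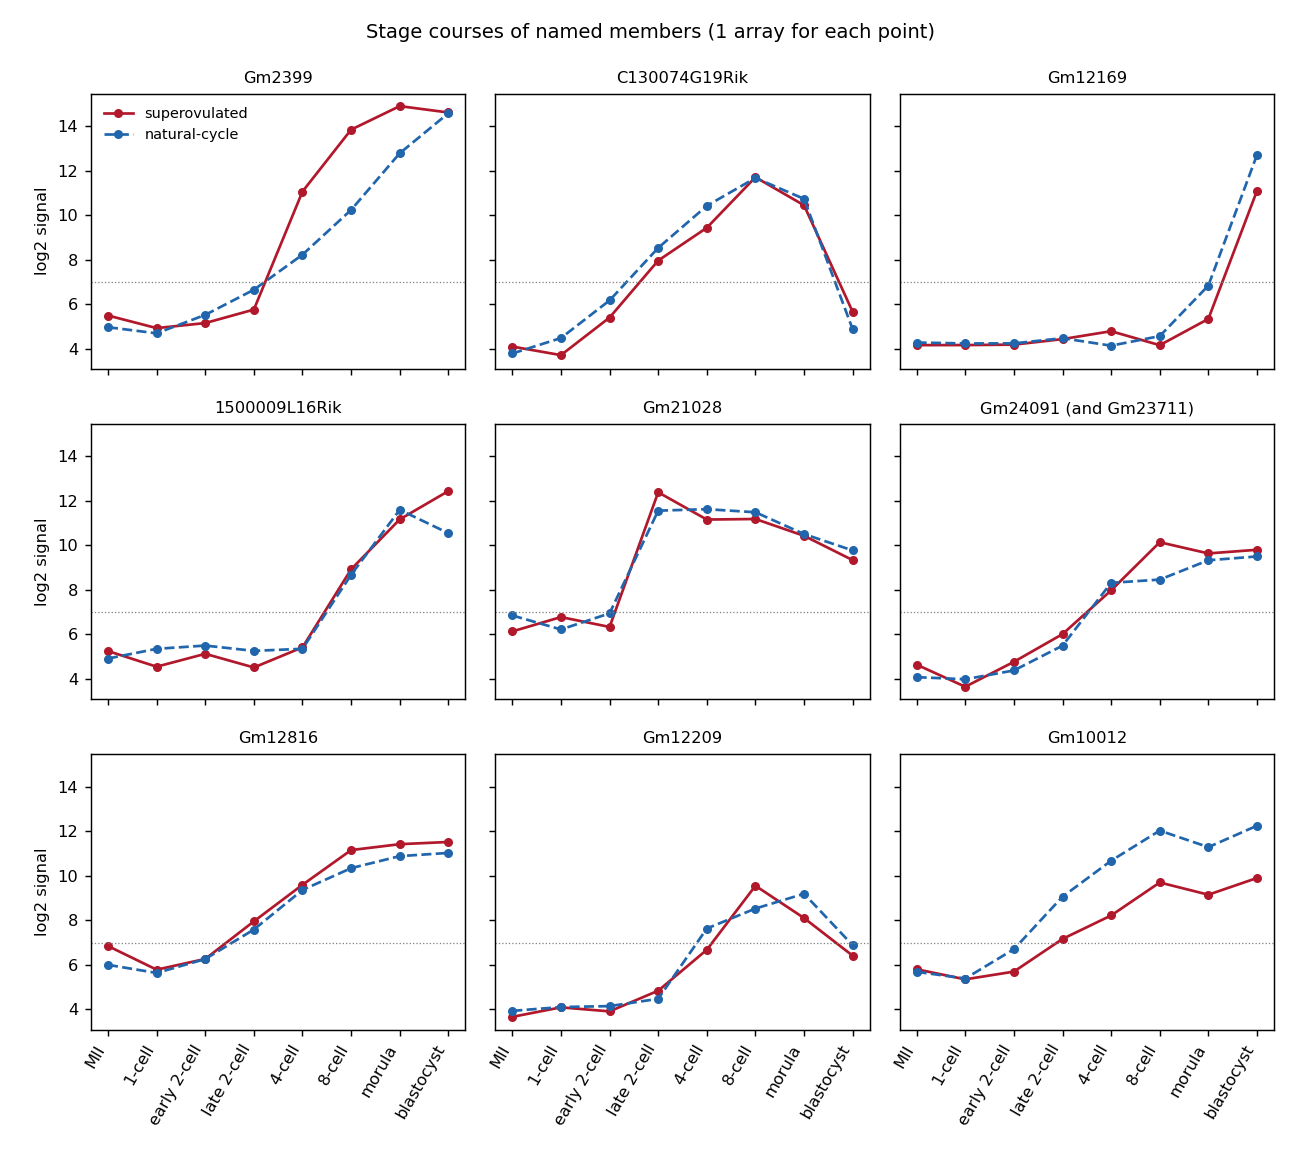
Deposited log2 signal of 9 named members over the 8 stages, 1 array for each point, superovulated (solid) and natural-cycle (dashed), with the ceiling of 7 log2 as a dotted line. C130074G19Rik peaked at 8-cell (11.70 and 11.67) and was low at blastocyst, Gm12169 came on at blastocyst (11.09 and 12.71), and the Gm10012 courses ran apart from early 2-cell on.

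From morula to blastocyst 3 members were called higher, where 6.54% of all rows were, and 5 were called lower, where 5.53% of all rows were. These counts include Gm12169 (higher) and C130074G19Rik (lower). Each met the rule through a single side of this step, so the counts are a description. The members' median difference was 0.06 log2 and that of all rows was -0.06, and 25 members and 7433 rows in all had an unadjusted p under 0.05. With each array centred on its median the called members were 3 higher and 3 lower. Of the other rows that met the level rule 64 were called higher and 58 lower, out of 309.

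The largest of the differences called higher at blastocyst was that of Gm12169, a protein-coding gene on chromosome 11. Its signal in superovulated material was 4.16, 4.16, 4.18, 4.43, 4.78, 4.15, 5.33 and 11.09 from MII to blastocyst, and in natural-cycle material 4.27, 4.23, 4.23, 4.47, 4.13, 4.56, 6.83 and 12.71. It was at most 4.78 up to 8-cell on both backgrounds, passed the margin first in natural-cycle morulae and in superovulated blastocysts, and both blastocyst values were far above all others. The difference was 5.82 ± 0.45 log2, a 56.4-fold higher signal. Gm12169 met the rule through its blastocyst values, so this difference is a description with no test. The trophectoderm list moved at the same stage (median 10.92 at blastocyst and 6.82 at morula in superovulated, 12.99 and 8.33 in natural-cycle embryos), and its part in this result was not tested.

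E530001F21Rik, the transcribed pseudogene that came on early, read 11.65 at blastocyst and 9.95 at morula in superovulated embryos, and 11.26 and 9.78 in natural-cycle embryos. Both blastocyst values were above every earlier value of this gene, and the step was 1.59 ± 0.26 (adjusted p = 0.00225). The pseudogene Gm11427 on chromosome 11 read 9.70 at blastocyst and 7.13 at morula in superovulated embryos, and 8.86 and 8.53 in natural-cycle embryos. Its step of 1.45 ± 0.39 (adjusted p = 0.0314) came mainly from the superovulated arrays, and it was not called without the superovulated morula array (adjusted p = 0.304) or the superovulated blastocyst array (0.234).

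Of the 5 members called lower at blastocyst, C130074G19Rik is described above. Gm12209 read 6.41 at blastocyst and 8.10 at morula in superovulated embryos, and 6.88 and 9.19 in natural-cycle embryos. It was called in both directions, higher at 4-cell and 4.01-fold lower at blastocyst (SE 0.41 on the log2 scale, adjusted p = 0.00721), and was not called only without the natural-cycle morula array (0.0667). The snoRNA Gm22676 read 7.05 at blastocyst and 8.34 at morula in superovulated embryos, and 6.67 and 8.26 in natural-cycle embryos (-1.44 ± 0.35, adjusted p = 0.0189). Both blastocyst values were below both morula values, and the call was kept in 13 of the 16 fits that left out an array, with adjusted p up to 0.163. The snoRNA Gm24336 (-1.24 ± 0.35, adjusted p = 0.0401) and the pseudogene Gm12090 (-1.07 ± 0.30, adjusted p = 0.0386) kept their call in 6 and 7 of the 16 fits that left out an array, with adjusted p up to 0.209 and 0.303. Gm24336 lies within Cwf19l1, whose row had a mean of 7.39 over the early and 8.21 over the late arrays. Gm22676 overlaps the apoptosis inhibitor gene Aven, whose row had means of 11.13 and 9.55.

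**Figure D4:**
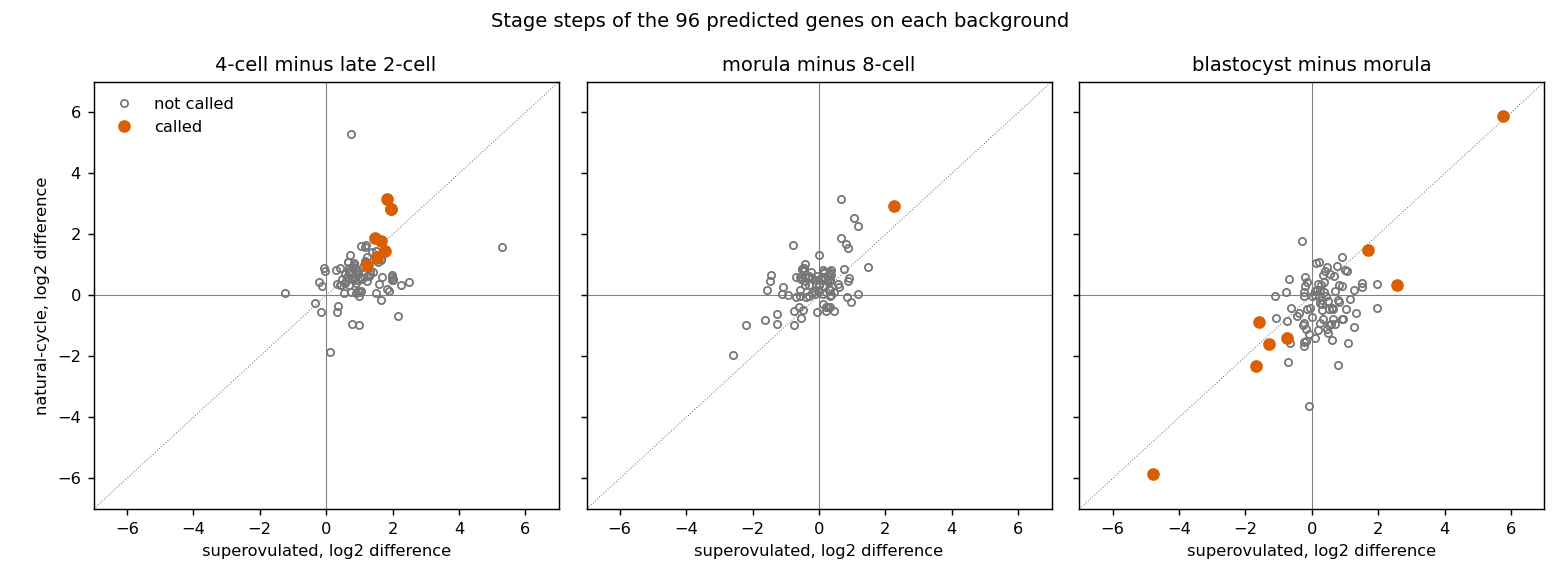
Each point is 1 of the 96 predicted genes, with its log2 difference between neighbouring stages in superovulated (horizontal axis) and natural-cycle (vertical axis) embryos; filled points were called by limma, and the dotted line marks equal differences. At 4-cell minus late 2-cell 81 points lie above 0 on both axes, whereas at morula minus 8-cell 42 and at blastocyst minus morula 41 have opposite signs. These counts are given for the members only. At blastocyst minus morula the filled points of Gm12169 and C130074G19Rik are a description with no test.

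The remaining protein-coding members had smaller rises. 4930591A17Rik on chromosome 2 read 3.56, 3.68, 4.11, 4.02, 5.00, 6.64, 7.29 and 7.22 from MII to blastocyst in superovulated and 3.39, 3.32, 3.42, 5.41, 4.44, 5.93, 9.10 and 5.48 in natural-cycle material. Its natural-cycle course stood out at morula, and no step was called (blastocyst minus morula adjusted p = 0.0980, limma). Gm3993 on chromosome 12, near the margin of the rule with a rise of 2.05, read 6.56, 6.23, 6.41, 6.69, 7.51, 8.26, 8.60 and 8.97 in superovulated and 6.03, 6.09, 6.44, 6.86, 7.79, 7.96, 8.73 and 9.19 in natural-cycle material. Both courses had a higher value at every step from late 2-cell on.

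Superovulated and natural-cycle embryos were then compared over late 2-cell to blastocyst, by 1 term for these 5 stages together, with stage in the fit. The members' median difference was 0.08 log2 against 0.05 over all rows. A single member, Gm10012, was called, and in the main fit it was the only row called among all 30638 (0.00326%), lower in superovulated embryos. At an unadjusted p under 0.05 there were 12 members and 4287 rows in all. The count of called rows on the whole array depended on the setting. It was 1 with median centring or cyclic loess, 197 with centring on brighter rows and 108 without a trend. It was 243 among rows above the median level, 104 with 1 superovulation term over all 8 stages, and 0 by unmoderated analysis of variance. Gm10012 read 5.80, 5.35, 5.69, 7.16, 8.22, 9.70, 9.15 and 9.90 from MII to blastocyst in superovulated material, and 5.68, 5.38, 6.70, 9.06, 10.68, 12.03, 11.29 and 12.25 in natural-cycle material. The backgrounds were alike at MII and 1-cell, and at early 2-cell the superovulated minus natural-cycle difference was -1.01 log2. From late 2-cell on superovulated embryos were lower at all 5 stages, by between -1.90 and -2.46 log2. The fitted difference was -2.24 ± 0.19 log2, a 4.71-fold lower signal (adjusted p = 0.0053, limma). It was not called without either 4-cell, 8-cell or morula array (adjusted p between 0.0545 and 0.0666), with 1 superovulation term over all 8 stages (0.0639) or by unmoderated analysis of variance (0.0950).

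Gm10012 has a second row on the array, which was not a member because it was high at all stages. That row read 14.42, 12.87, 12.11, 14.92, 16.38, 16.72, 16.49 and 16.93 in superovulated and 12.74, 10.16, 12.32, 15.09, 15.80, 16.38, 16.35 and 17.35 in natural-cycle material. At late 2-cell to blastocyst its superovulated values were higher at 3 stages and lower at 2, so the 2 rows disagreed on the background difference. Gm10012 had no RefSeq record, and the transcript that each row measures is not known here.

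No other member was called for superovulation, and the plain values by stage are given as a description. Superovulated values were the higher ones for 70 of the 96 genes at MII, 61 at 1-cell, 26 at early 2-cell, 36 at late 2-cell, 56 at 4-cell, 63 at 8-cell, 39 at morula and 79 at blastocyst. As a share of all rows the superovulated value was the higher one for 49.1% at MII, 50.3% at 1-cell, 53.0% at early 2-cell, 55.8% at late 2-cell, 54.7% at 4-cell, 53.5% at 8-cell, 60.3% at morula and 60.5% at blastocyst. The median difference was 0.28 at MII, 0.18 at 1-cell, -0.23 at early 2-cell, -0.16 at late 2-cell, 0.09 at 4-cell, 0.24 at 8-cell, -0.22 at morula and 0.44 at blastocyst. It thus changed sign 4 times along the stages, whereas the median over all rows stayed between -0.01 and 0.11. Since no array was repeated, the difference at a single stage was not tested, and stage-to-stage differences between arrays and between backgrounds cannot be told apart. Only 6 members were higher and 1 was lower in superovulated embryos at all 5 later stages (6.25% and 1.04%, against 9.16% and 3.27% of all rows). The difference did not pass the test for a change between the early and the late stages in any member (0 of 30638 rows called, 7 members and 1905 rows at an unadjusted p under 0.05).

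**Figure D5:**
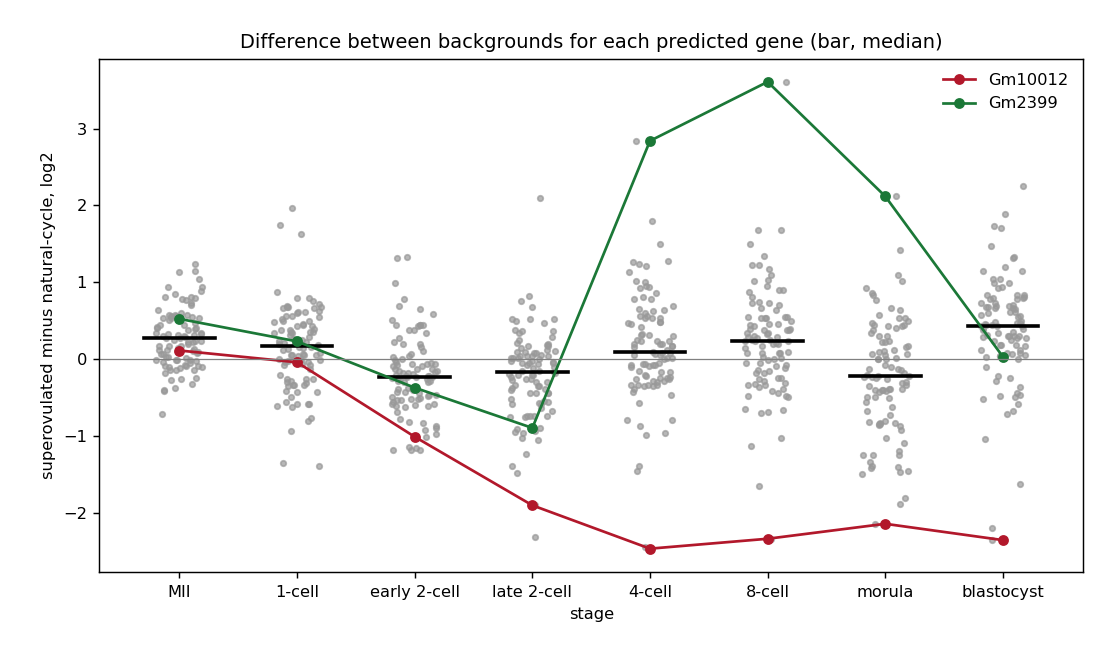
Superovulated minus natural-cycle log2 signal (vertical axis) of each of the 96 genes (points) at each stage (horizontal axis), with the median as a bar and 2 genes joined by lines. Gm10012 lay between -1.90 and -2.46 from late 2-cell on, and Gm2399 was 2.84 at 4-cell, 3.61 at 8-cell and 0.03 at blastocyst.

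Gm2399 was the widest apart of all members, and its superovulation difference was 1.54 ± 0.55 log2 without a call (adjusted p = 0.261). Its 4-cell over late 2-cell step was 5.31 log2 in superovulated and 1.58 in natural-cycle embryos, and was not called either (3.44 ± 0.92, adjusted p = 0.0818). In all, 6 members were at least 2 log2 apart at 1 or more of the 5 later stages. Besides Gm10012 and Gm2399 these were the pseudogene Gm6335 (2.26 higher in superovulated blastocysts), the snoRNA Gm23201 (-2.31 at late 2-cell), the snRNA Gm25147 (-2.19 at blastocyst) and the snRNA Gm23111 (2.10 at late 2-cell and -2.45 at 4-cell), the last 3 named after their values were seen. Differences in timing and in level cannot be told apart here.

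Position along the chromosomes was checked for the 93 members with a RefSeq record, by gene order in GRCm38.p6 and without coordinates, since the build of the array annotation was not given. In all 45 members lay inside or over another RefSeq gene, and none of the 30 such genes on the array with another name met the level rule. Among all rows with another symbol 1.48% met it (309 of 20857), and of 177 nearest protein-coding neighbours 3 did. They were the mitochondrial ribosomal protein gene Mrpl15 beside Gm6085, Ndrg3 beside Gm14278 and the ribosomal protein gene Rps18 beside the snRNA Gm23111. Mrpl15 read 6.81, 6.45, 6.26, 7.21, 8.87, 10.96, 11.34 and 11.35 in superovulated and 6.41, 6.42, 6.38, 7.38, 8.99, 10.51, 11.34 and 10.85 in natural-cycle material.

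Members with at most 9 RefSeq genes between them formed 7 pairs. These were Gm12206 with Gm12209 (chromosome 11), Gm8324 with Gm2877 (14), Gm15703 with Gm15696 (16), Gm26510 with Gm16519 (17), Gm24091 with Gm23711 (4), Gm16425 with Gm6483 (8) and Gm10112 with Gm6335 (X). Only the snoRNA pair had identical values, and Gm12206 and Gm12209 were the only other pair with both genes called in the same step. Gm12206 peaked at 8-cell on both backgrounds (7.54 and 8.20), and Gm12209 peaked at 8-cell in superovulated (9.55) and at morula in natural-cycle embryos (9.19).

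For the pseudogene Gm6058 on chromosome 1, RefSeq lists a synonym naming it a copy of Gabarapl2, which encodes an autophagy protein of the Atg8 family. Gm6058 read 4.19, 3.91, 4.43, 6.54, 6.87, 7.47, 7.40 and 8.41 in superovulated and 3.88, 3.68, 5.32, 7.57, 7.02, 8.60, 8.07 and 7.61 in natural-cycle material. The Gabarapl2 row read 9.18, 9.03, 12.20, 15.27, 15.87, 16.72, 16.71 and 17.12 in superovulated and 9.04, 10.87, 14.00, 15.70, 16.44, 16.91, 17.29 and 17.01 in natural-cycle material. Both rows were higher at late 2-cell than at early 2-cell, and higher at early 2-cell than at MII, on both backgrounds. In superovulated material the 2 rows moved in the same direction at every step. In natural-cycle material they moved in opposite directions from MII to 1-cell, from late 2-cell to 4-cell and from 8-cell to morula. This pair was named after its values were seen, and how much of the Gm6058 signal is Gabarapl2 RNA was not tested.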

How the data were processed

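The deposited table held log2 signals that the authors made with Affymetrix Expression Console (per the submitters' processing notes, no version given), 1 column for each of the 16 arrays, with column medians from 4.39 to 4.69. The study's methods name signal space transformation with robust multiarray averaging for its single-blastomere arrays. For the 16 arrays analysed the sources used here name neither the normalization nor the genome build. Values were used as deposited.

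Symbols came from the platform annotation. All 30638 rows with exactly 1 symbol were tested, and 2176 rows with several, 39874 with none, and 155 spike-in, 23 background and 8 other control rows were left out. Gene types and order came from RefSeq (22596 of 22787 gene identifiers found). The members, lists and rules were chosen with earlier results of these data known. limma 3.58.1 (R 4.3.3) was fitted to all 16 arrays with stage and stimulation as additive terms and a mean-variance trend (7 residual and 4.52 prior degrees of freedom). For superovulation, the early stages (up to early 2-cell) and the later stages had a term each. Calls had a Benjamini-Hochberg adjusted p below 0.05 over all rows. The fit was tested on simulated data, but the outcome is not given here and no conclusion is drawn from it. The median standard error of the members was 0.35 log2 for a step, and the number of arrays limits this precision.

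Named genes were the 10 largest rises, up to 6 called members in each direction of a comparison with the same sign on both backgrounds (or in at least 4 of 5 later stages), protein-coding members, those at the thresholds, neighbouring members, and up to 6 on at late 2-cell. Markers of oocyte, 2-cell activation, trophectoderm, inner cell mass, primitive endoderm, and cumulus and granulosa cells were checked against the stage names. Alternatives were other centring, cyclic loess, other row filters, fits without trend, moderation or stimulation, array weights, other thresholds, and leaving out each array.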

Additional observations from a re-analysis of the deposited data

Results flagged for a closer look

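Of the 96 genes, 2 moved by at least 1 log2 in opposite directions on the 2 backgrounds between morula and blastocyst, and the difference between the backgrounds was not tested, since each value is a single array. 1500009L16Rik was 1.27 log2 higher at blastocyst than at morula in superovulated embryos (12.45 and 11.17), whereas its step was -1.05 in natural-cycle embryos (10.55 and 11.60), which puts the steps 2.32 apart. The long non-coding RNA 2410003L11Rik, named after its values were seen, was 1.08 higher at blastocyst in superovulated embryos (8.26 and 7.18), whereas its step was -1.57 in natural-cycle embryos (7.48 and 9.06), which puts the steps 2.66 apart.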

How the results depend on the processing

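With a margin of 1.5 or 2.5 log2 in place of 2 there were 157 or 57 members, 23 or 4 of them past the margin at late 2-cell and 79 or 17 at 4-cell on both backgrounds. A ceiling of 6.5 gave 22 at 4-cell and cyclic loess gave 7 at late 2-cell. For 4-cell over late 2-cell, 4 members were called with all rows tested, 19 among rows above the median level, 1 by unmoderated analysis of variance and 5 without the stimulation term, against 8. Leaving out an array gave 0 (natural-cycle 4-cell) to 9, and 4 without superovulated 4-cell. For morula over 8-cell the counts were 2 with centring on brighter rows, 4 among rows above the median level, and 0 with all rows, analysis of variance or array weights, against 1. Leaving out an array gave 0 (either MII, 4-cell or 8-cell array) to 5 (superovulated morula), and 3 without either blastocyst array. For blastocyst over morula they were 5 with all rows and 4 with analysis of variance or array weights, against 8. Leaving out an array gave 5 (natural-cycle blastocyst) to 12 (superovulated blastocyst). For superovulation they were 2 among rows above the median level and 0 with analysis of variance or 1 term over 8 stages, against 1, and 0 or 1 on leaving out an array. For the change of the superovulation difference between early and late stages, 0 were called in all 8 settings and 16 fits without an array. No called member changed sign, in the comparison where it was called, in any setting. A stage left with 1 array was assumed to vary like the others. The stage term of the fit matched the 2 backgrounds by stage. No pairing beyond stage was possible because the labels carry no replicate numbers and each stage and background has 1 array.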

Other observations

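The same level rule was also met by 24 rows with several symbols, 11 of them with a Gm-number or Rik symbol among those, and by 570 rows with no symbol. Of 950 rows with another kind of symbol whose RefSeq type is pseudogene, 12 met it (1.26%).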
